A study of Rattus norvegicus with 6 samples.

Results

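The genes examined here encode the enzymes that bring pyruvate into the mitochondrion and oxidise it, the enzymes that refill the tricarboxylic acid (TCA) cycle, and the cycle itself with the aspartate aminotransferases that work beside it. The list holds 38 gene names grouped by function, though earlier results of these data were known when it was chosen. Of these, 33 had a row among the 12958 named genes of the deposited table, and 5 (Pdha1, Pdhx, Pcca, Idh3g and Ogdh) were not analysed here. Idh3b is spelled Idh3B in the table. All 33 had a mean over the 6 libraries of at least 10 normalised counts and entered the test, which covered 10725 genes.

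Pyruvate made from glucose or lactate enters mitochondria through a carrier and is turned into acetyl-CoA by the pyruvate dehydrogenase (PDH) complex, which kinases switch off by phosphorylation and phosphatases switch on again. Acetyl-CoA is then burnt in the TCA cycle, whose intermediates are replaced by anaplerotic reactions such as the carboxylation of pyruvate or of propionyl-CoA. The healthy heart runs mainly on fatty acids, and PDH kinases have been studied as drug targets in the pressure-loaded right ventricle (RV).

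RNA was sequenced from RV tissue of male Sprague-Dawley rats, with 3 libraries of healthy controls taken at day 0 and 3 of SuHx rats taken at 8 weeks. SuHx rats were injected with SU5416, a blocker of the vascular endothelial growth factor receptor, then housed in hypoxia and returned to normal air. Their RV was classed by the study as decompensated or maladaptive. No control of 8 weeks is among the libraries, and for every difference given here the effects of age, the drug, hypoxia and load cannot be told apart. Controls keep the numbers of their labels (1, 2, 3), while letters (A, B, C) name the SuHx libraries, for which the labels leave the rat unclear. Values of single libraries are given in that order, and means with the SD over the 3 libraries of a group. Each library was taken as the RV of 1 rat, since the study counts RV tissues, but the labels name no animals. The main test (limma) sets a difference against the spread of the 3 libraries of a group, drawn towards that of genes of similar level. Part of that spread may be technical. In whole tissue, fewer cells of a type and less RNA per cell cannot be told apart.

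The values are normalised counts per gene as the authors deposited them. They summed to between 11607609 and 12393415 in control and between 12754296 and 18249330 in SuHx libraries. The 11 mitochondrially encoded transcripts took 47.8% to 51.9% of the total in control and 50.9% to 62.2% in SuHx. A pair of controls stood apart from their group. Summed atrial markers (Nppa, Myl7, Myl4, Sln and Bmp10) were at 50544 in control 1, against 72.9 and 84.3 in controls 2 and 3 and 15530 to 17549 in SuHx. The SuHx sum was nearly all Nppa (15462 to 17508), which the loaded ventricle also makes, while Myl7 and Sln were at most 7.17, Bmp10 was at 0 and Myl4 at most 58.1 there. In control 1 Myl7, Sln, Bmp10 and Myl4 were at 1353, 560.4, 2363 and 9629. An index chosen after the data were examined used the log2 deviation of each gene from its mean over the 6 libraries. It was the median deviation of 10 genes of long transcripts minus that of 62 ribosomal protein genes. This index was -1.37 in control 3, against 0.062 and -0.041 in controls 1 and 2 and 0.18 to 0.66 in SuHx. Cardiomyocyte markers were present in every library, with 7 genes that summed to 651570 to 799200 in control and 490370 to 523200 in SuHx, the difference lying mainly in Myh6.

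For most transcripts of pyruvate oxidation and of the TCA cycle no difference between SuHx and control RV passed the test. Of the 33 genes, 1 was higher in SuHx (Pc, listed at 0 in every control), where 1.55% of all tested genes were, and 0 were lower, where 0.671% were. The other 32 missed the threshold of 0.05 on the adjusted p from limma, beside 2.22% of all genes that passed in either direction. With genes listed at 0 in any library left out, 0 passed in either direction. At an unadjusted p under 0.05 there were 3 (Pc, Pccb and Suclg1), where 17.2% of all genes lay under that level. The median log2 fold change over the 33 was -0.058, and that of all tested genes was 0.0095. For 26 of the 33 the 95% interval of the log2 fold change from limma lay within -1 and 1, that is, within a 2-fold change either way, which held for 57.4% of all tested genes. The 2 shares were not matched for expression level, with which the width of an interval can vary. A p above the threshold does not show equal levels, and the intervals give the change that the libraries still allow.

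**Figure D1:**
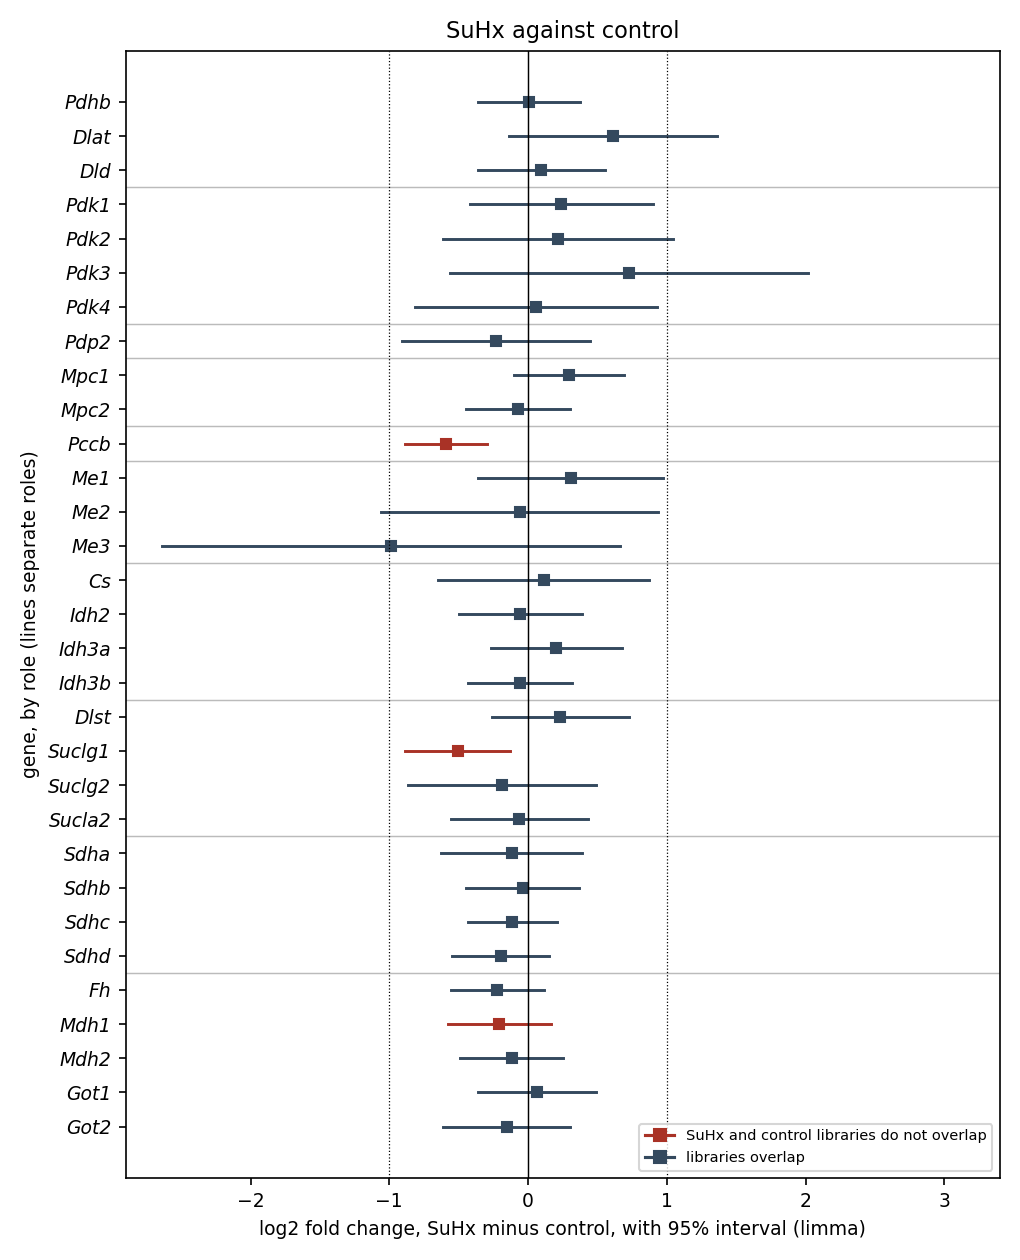
Log2 fold change of SuHx against control (squares) with its 95% interval from limma (bars) for the 31 genes above 0 in every library, grouped by role, with dotted lines at a 2-fold change. The intervals of Pccb and Suclg1 lie wholly below 0, and 26 of the 31 intervals lie between the dotted lines.

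In 4 genes the SuHx and control libraries did not overlap, 3 lying lower in SuHx (Pccb, Suclg1 and Mdh1) and 1 higher (Pc), where 24.6% of all tested genes did not overlap (11.6% lower and 12.9% higher). Groups that do not overlap always give p = 0.1 in a two-sided exact permutation test, the smallest p that 3 libraries against 3 allow. For these 4 genes that p therefore adds nothing to the lack of overlap. The bases before the start of transcription of the 3 genes that lay lower are shown first, since these had values above 0 in every library. Their share of the 33 does not exceed the 11.6% of all tested genes that lay lower, so this is a choice of display. Each stretch runs over 250 bases up to the annotated start (RefSeq, assembly GRCr8), in lower case with matches to the motifs described after it in capitals.
Pccb (chr8:110520187-110520436, GRCr8, minus strand): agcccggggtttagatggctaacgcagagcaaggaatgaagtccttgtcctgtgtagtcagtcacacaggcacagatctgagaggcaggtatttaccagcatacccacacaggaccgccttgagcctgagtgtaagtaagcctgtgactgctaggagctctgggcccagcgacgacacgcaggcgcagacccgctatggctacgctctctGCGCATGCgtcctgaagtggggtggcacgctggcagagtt
Suclg1 (chr4:106866079-106866328, GRCr8, plus strand): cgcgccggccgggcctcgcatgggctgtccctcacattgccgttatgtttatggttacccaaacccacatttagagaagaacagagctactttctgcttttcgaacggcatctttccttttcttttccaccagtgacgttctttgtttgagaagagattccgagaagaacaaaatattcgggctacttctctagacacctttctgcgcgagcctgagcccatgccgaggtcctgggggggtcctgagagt
Mdh1 (chr14:99847228-99847477, GRCr8, minus strand): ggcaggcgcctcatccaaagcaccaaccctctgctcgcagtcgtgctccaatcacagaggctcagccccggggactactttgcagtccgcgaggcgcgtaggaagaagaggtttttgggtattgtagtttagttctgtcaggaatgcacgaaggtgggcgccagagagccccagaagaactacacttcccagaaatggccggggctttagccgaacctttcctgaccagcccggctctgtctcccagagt
Motifs bound by regulators of nuclear genes for mitochondrial proteins were searched on both strands in these windows, the core of the site of nuclear respiratory factor 1 (GCATGCGC) and the extended half-site of the oestrogen-related receptors (TNAAGGTCA). The capitals in Pccb mark the first motif on the opposite strand, 40 to 33 bases before the start. Of the 29 genes with values that had a promoter in the table, 2 held that core (Pccb and Sdhb) and 0 held the half-site, where 2.2% and 1.04% of all 33469 promoters held them. The genes were counted once each, with a match in any promoter of the gene, while the shares are per promoter. These matches describe letters and not bound sites.

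Pccb encodes the beta subunit of propionyl-CoA carboxylase, which leads odd-chain fatty acids and some amino acids towards succinyl-CoA. It was at 1088, 1160 and 1053 normalised counts across the controls, against 749.8, 760.0 and 683 in SuHx A, B and C. All SuHx libraries lay below all controls, with little spread inside either group. The mean was 731 ± 42.0 in SuHx and 1100.3 ± 54.2 in control (mean ± SD, n = 3 each). On the log2 scale this was a change of -0.59 (standard error 0.13, 95% interval -0.88 to -0.30), and its adjusted p of 0.067 from limma missed the threshold. It passed without control 3 (log2 fold change -0.62, adjusted p = 0.040 from limma), the library that stood apart in the index of long transcripts, and missed it without any other single library (adjusted p from 0.15 to 0.26).

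None of the other genes of the propionyl route passed. Mcee (methylmalonyl-CoA epimerase) had means of 163 ± 39.7 in SuHx and 240.1 ± 58.4 in control, Mut (methylmalonyl-CoA mutase) 917 ± 159 and 1249 ± 530, and Mmaa, which serves the cobalamin cofactor of the mutase, 107 ± 17.9 and 139.7 ± 17.0 normalised counts (SD, n = 3 each). For each of the 3 genes the groups overlapped. Mmab, which also acts on the cofactor, was at 236 ± 20.1 in SuHx and 218 ± 35.8 in control.

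Pc encodes pyruvate carboxylase, which makes oxaloacetate from pyruvate. It was listed at 0 in all 3 controls and at 137, 107 and 157 normalised counts across SuHx. Its adjusted p in limma was 0.0035. Pc entered the test only through its SuHx values, and the spread of its controls is that of 3 values of 0, so this p is given as a description. Of 8124 genes whose mean reached 50 normalised counts, Pc and Gorasp2 were the 2 listed at 0 in every control and above 0 in every SuHx library, and 0 genes showed the reverse. Since an exact 0 in this table can be a failed estimate, no fold change is given and a rise of Pc from no expression is not shown. Fat cells are known to express Pc strongly. Of 6 markers of fat cells 4 had a row, and their sum (mostly Fabp4) was 2925 to 8832 in control and 2621 to 3032 in SuHx. Of their defining markers, Adipoq was at 42.6, 0 and 0 across the controls and between 0 and 1.55 in SuHx. Cidec was at 12.3, 0 and 1.99 across the controls and at 0 in every SuHx library. The part of fat cells in the values of Pc was not tested.

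**Figure D2:**
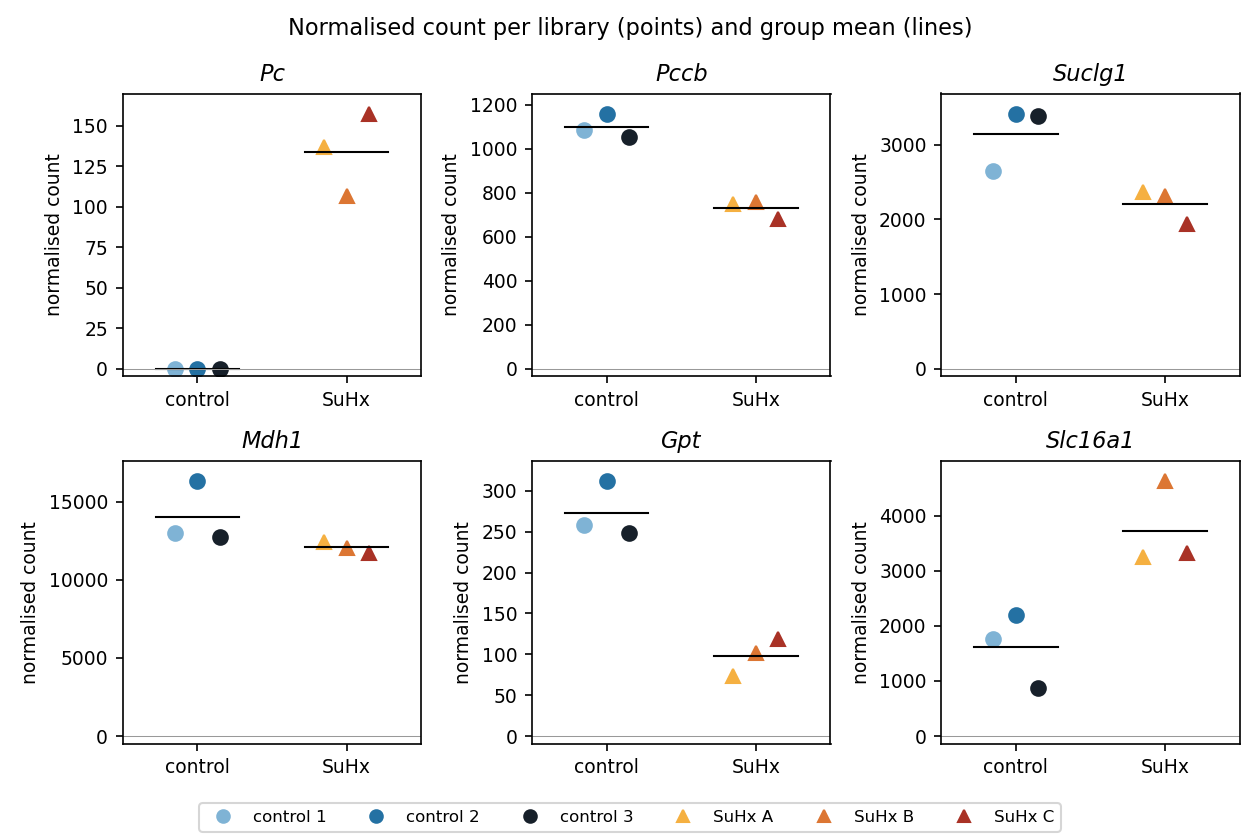
Normalised counts in each library (points) with the group mean (line) for 4 genes of the list and for Gpt and Slc16a1 of the wider pathway, which are described further on. Pccb runs from 1053 to 1160 in control and from 683 to 760.0 in SuHx, and Pc is at 0 in every control.

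The malic enzymes convert malate to pyruvate and did not pass the test. Me1, the cytosolic form, was at 1060, 1244 and 574 normalised counts across the controls, against 1280, 1107 and 1011 across SuHx, so the SuHx values lay inside or just above the control range. Me2 was at low levels in all libraries, from 20.6 to 53.4. Me3 varied most inside SuHx, with 173, 18.1 and 77.2 in A, B and C, while the controls lay at 113, 132 and 132. Its 95% interval, -2.64 to 0.66 on the log2 scale, was the widest of the genes above 0 in every library.

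The PDH complex showed no gene that passed. Pdhb, which encodes the beta subunit of its first enzyme, had means of 2440 ± 228 in SuHx and 2437 ± 363 in control (mean ± SD, n = 3 each), with a 95% interval of -0.36 to 0.38 for the log2 fold change. Dld, the dihydrolipoamide dehydrogenase shared with other complexes, was at 2802, 3126 and 1939 normalised counts across the controls, against 2635, 2909 and 2711 across SuHx. Its SuHx values all lay inside the control range. Dlat, the acetyltransferase at the core of the complex, was at 2238, 2898 and 1139 normalised counts across the controls, against 2845, 3208 and 2878 across SuHx. Control 2 lay inside the SuHx range and control 3 far below it. With all libraries limma gave Dlat a change of 0.61 on the log2 scale (standard error 0.32, adjusted p = 0.38), and 0.22 without control 3 (adjusted p = 0.44).

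None of the 4 PDH kinases passed, and each overlapped between the groups. Pdk4, the isoform that fasting and fatty acids induce, was at 909.9, 1217 and 630.4 normalised counts across the controls, against 650.3, 1587 and 761 across SuHx. The highest value was in SuHx B and the lowest in control 3, and the spread inside SuHx was wider than the distance between the group means of 999 ± 512 and 919 ± 293 (SD, n = 3 each). Pdk2, the widely expressed isoform, was at 2850.3, 3438 and 1236 normalised counts across the controls, against 2779, 2685 and 2554 across SuHx, with control 3 far below every other library. Pdk1, a target of hypoxia-inducible factors, was at 1618 ± 107 in SuHx, taken after the hypoxia had ended, and 1444 ± 540 in control, again with control 3 lowest at 864. Pdk3 was low in all libraries, from 10.6 to 58.5. The 95% intervals of the log2 fold change were -0.42 to 0.90 for Pdk1, -0.61 to 1.05 for Pdk2, -0.56 to 2.02 for Pdk3 and -0.82 to 0.93 for Pdk4.

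Of the phosphatases that oppose these kinases, Pdp2 was at 193.9, 274 and 123 normalised counts across the controls, against 160.2, 140.3 and 179 across SuHx. All SuHx values lay inside the control range. Pdp1, the calcium-activated form, was at 102, 53.1 and 43.7 normalised counts across the controls, against 47.9, 84.3 and 0 across SuHx. Because of the 0 in SuHx C no fold change is given. Pdpr, the regulatory subunit of the phosphatase, was at 564 ± 100.3 in SuHx and 355 ± 203 in control with overlapping groups.

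The mitochondrial pyruvate carrier is built from Mpc1 and Mpc2. Mpc1 was at 3356, 4906 and 3864 normalised counts across the controls, against 4988, 4854 and 4860.2 across SuHx. The SuHx libraries were close together at the level of the highest control. The 95% interval of the log2 fold change was -0.098 to 0.69 for Mpc1 and -0.45 to 0.30 for Mpc2, which had means of 303 ± 38.8 in SuHx and 318 ± 29.8 in control.

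In the first span of the cycle, from citrate to 2-oxoglutarate, 0 of 4 genes passed and all 4 intervals lay within a 2-fold change. Cs (citrate synthase) was at 4632 ± 395 in SuHx and 4589 ± 1905 in control (mean ± SD, n = 3 each), with control 3 at 2458 and controls 1 and 2 at 5181 and 6127. Idh2, the NADP-linked isocitrate dehydrogenase of mitochondria, was at 19517, 27876 and 23643 normalised counts across the controls, against 23691, 24057 and 20144 across SuHx, all inside the control range. Of the NAD-linked enzyme of the cycle, Idh3a was at 2943 ± 274 in SuHx and 2600.0 ± 631 in control, and Idh3b at 3209 ± 238 and 3365 ± 556.

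Between 2-oxoglutarate and succinate, 0 of 4 genes passed, and Suclg1 was the one whose groups did not overlap. It encodes the alpha subunit of succinyl-CoA ligase, which pairs with either Sucla2 (the ATP-forming beta subunit) or Suclg2 (the GTP-forming one). Suclg1 was at 2648, 3417 and 3386 normalised counts across the controls, against 2373, 2319 and 1943 across SuHx, so every SuHx library lay below every control. The log2 fold change was -0.51 (standard error 0.16, 95% interval -0.88 to -0.13, adjusted p = 0.17 from limma), which did not pass in any of the 19 alternative fits (adjusted p from 0.070 to 0.46). Sucla2 had means of 3045 ± 298 and 3245 ± 837 and Suclg2 of 955 ± 105 and 1143 ± 436 in SuHx and control, and for both the groups overlapped. That Suclg1 differs from its partners was not tested. Dlst, a subunit of the 2-oxoglutarate dehydrogenase complex, was at 5586, 7531 and 4669.8 normalised counts across the controls, against 6995, 7741 and 5871 across SuHx, with overlapping groups.

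Succinate dehydrogenase, which is also complex II of the respiratory chain, has 4 subunits, and 0 of the 4 genes passed. Sdha, its flavoprotein, was at 9781, 11523 and 6638 normalised counts across the controls, against 8772, 8262 and 8064 across SuHx. The controls spread to both sides of the SuHx libraries. Sdhb, the iron-sulphur subunit, was at 4225 ± 274 and 4390.4 ± 847. The membrane anchors Sdhc and Sdhd were at 2399 ± 139.6 and 2994 ± 294 in SuHx and at 2600.3 ± 274 and 3435 ± 374 in control. All 4 intervals lay within a 2-fold change, the widest running from -0.63 to 0.39 for Sdha.

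Of the last steps, Mdh1, the cytosolic malate dehydrogenase of the malate-aspartate shuttle, was at 12967, 16296 and 12763 normalised counts across the controls, against 12448, 12047 and 11724 across SuHx. The groups did not overlap, but SuHx A lay close to control 3. The log2 fold change was -0.21 (standard error 0.16, 95% interval -0.57 to 0.16, adjusted p = 0.55 from limma), and it was -0.092 without control 2, the highest library. Mdh2, the mitochondrial form, was at 11213 ± 813 and 12211 ± 1591 in SuHx and control, and Fh (fumarase) at 2041 ± 133 and 2385 ± 268. The aspartate aminotransferases Got1 and Got2 were at 5142 ± 467 and 6527 ± 404 in SuHx and at 4967 ± 1042 and 7397 ± 1750 in control (mean ± SD, n = 3 each). None of these 4 passed.

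The balance of forms inside a family was compared as a difference of log2 values within each library, which a single scaling factor of the library leaves nearly as it is. Over 7 pairs (Pdk4, Pdk1 and Pdk3 each against Pdk2, Me1 against Me3, Sucla2 against Suclg2, Got1 against Got2, and Mdh1 against Mdh2), 0 differed between the groups at an adjusted p under 0.05, and the design allows no p below 0.1. The difference of Mdh1 and Mdh2 was 0.20 ± 0.026 in control and 0.11 ± 0.063 in SuHx (SD, n = 3 each, exact permutation p = 0.2, adjusted p = 0.7). That of Pdk4 and Pdk2 was -1.37 ± 0.36 in control and -1.53 ± 0.69 in SuHx (exact permutation p = 0.7, adjusted p = 0.9).

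The genes varied more between the control libraries than between the SuHx libraries. The SD of the log2 values was larger in control for 26 of the 33 genes, or 78.8%, against 66.1% of all tested genes, and its median was 0.35 in control and 0.13 in SuHx (0.31 and 0.21 over all tested genes). Control 2 was the highest control for 28 of the 33 genes, or 84.8%, where this held for 30.8% of all tested genes. It was the highest of all 6 libraries for 20 of them, or 60.6%, against 14.1%. Control 3 was the lowest control for 19, or 57.6%, against 40.2%. In SuHx, library C was the lowest for 21, or 63.6%, against 32.4%. The genes of pyruvate oxidation and the TCA cycle shared much of their order among libraries of the same group.

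**Figure D3:**
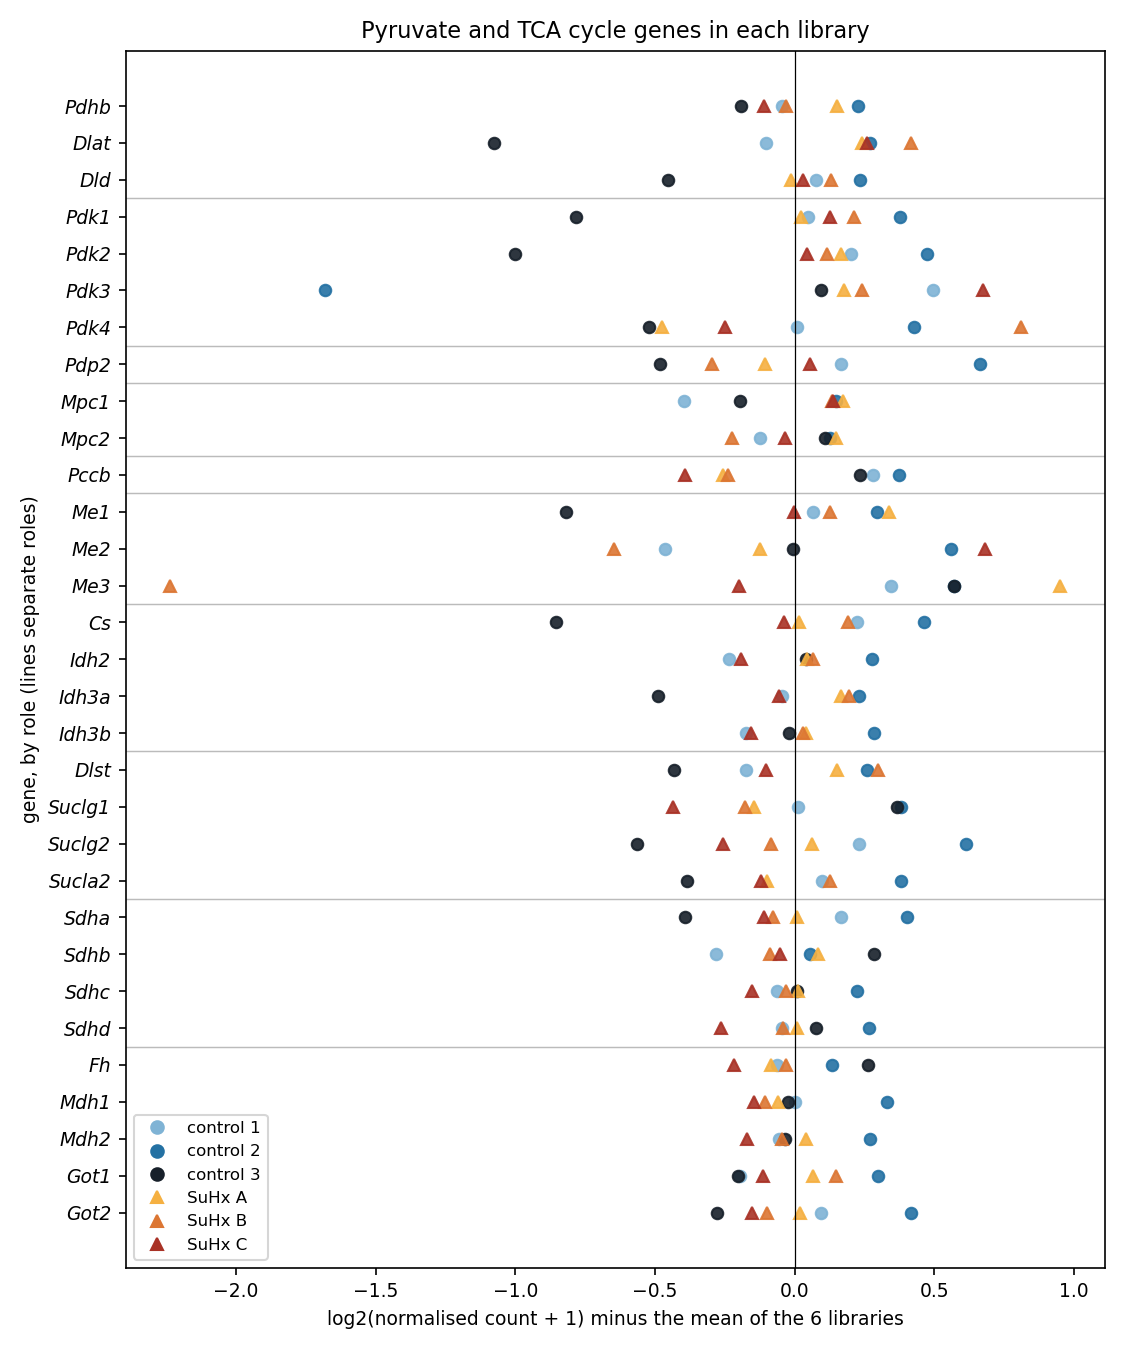
Log2 normalised counts (plus 1) in each library relative to the mean of the 6 libraries, for the 31 genes above 0 in every library, grouped by role. Control 2 (mid blue) is the highest control for most genes, control 3 (black) is far below the others for Dlat, Pdk1, Pdk2, Me1 and Cs but not for Suclg1, Sdhb and Fh, and the SuHx libraries (triangles) are closer together.

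Control 3 was not low for all genes of 1 enzyme complex. Within succinate dehydrogenase it held Sdha at 6638, the lowest of all 6 libraries, and Sdhb at 5213, the highest. The difference of Sdha and Sdhb was 1.47, 1.38 and 0.35 log2 units across the controls and 0.95, 1.04 and 0.97 across SuHx. Within the PDH complex the difference of Dlat and Pdhb was -0.072, 0.031 and -0.90 log2 units across the controls and 0.080, 0.43 and 0.36 across SuHx. For both pairs, chosen after the values were seen, control 3 lay lowest, as it did for the index of long transcripts (-1.37). The part of RNA quality in these differences was not tested.

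**Figure D4:**
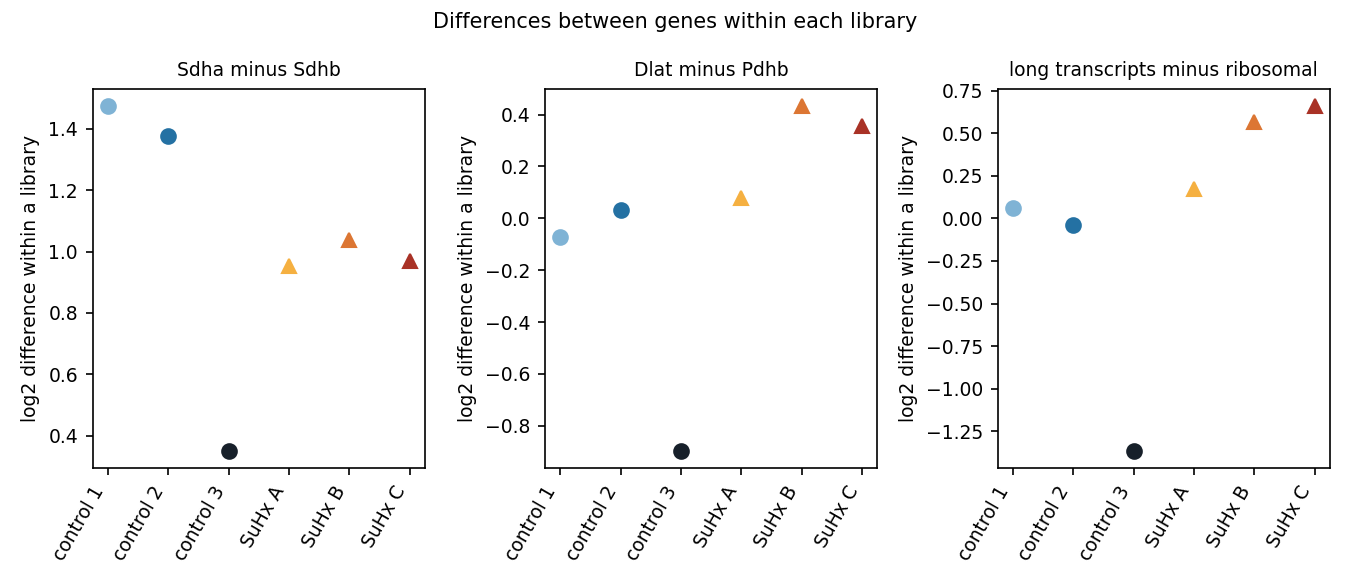
Differences of log2 values within each library for Sdha and Sdhb (left), for Dlat and Pdhb (middle), and for long transcripts and ribosomal protein genes (right, in deviations from the mean of the 6 libraries). Control 3 is the lowest library in all 3 panels, at 0.35, -0.90 and -1.37.

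Around this core, 41 further genes of the pathway were listed (among them lipoylation, assembly of succinate dehydrogenase, lactate and monocarboxylate handling, the propionyl route, glutamate and alanine entry, carriers, citrate export and deacylases). Of these 34 had a row and 31 were tested. In limma 0 were higher, 1 was lower (Gpt) and 30 did not pass, beside 0.671% of all tested genes that were lower. At an unadjusted p under 0.05 there were 6 of the 31, where 17.2% of all genes lay under that level. Their median change was 0.051 on the log2 scale. Gpt encodes the alanine aminotransferase of the cytosol, which links alanine to pyruvate. It was at 259, 311 and 249 normalised counts across the controls, against 73.6, 102 and 119 across SuHx. All SuHx libraries lay under the lowest control, and Gpt fell by 1.49 on the log2 scale (standard error 0.22), with an adjusted p of 0.022 in limma. The call was kept without control 3 (adjusted p = 0.028) and lost without any other single library, where the adjusted p ran from 0.059 without control 1 to 0.090 without SuHx B.

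In lactate and monocarboxylate handling, Slc16a1, the transporter MCT1 of lactate and pyruvate, was at 1771, 2199 and 880.3 normalised counts across the controls, against 3257, 4627 and 3320 across SuHx. Every SuHx library lay above every control. Its change of 1.29 on the log2 scale (standard error 0.34, adjusted p = 0.11 in limma) did not pass in any of the 19 alternative fits, and the change was 0.90 without control 3 (adjusted p = 0.063). Ldha, the muscle-type subunit of lactate dehydrogenase, was at 7665 ± 436 in SuHx and 6126 ± 524 in control (mean ± SD, n = 3 each) with no overlap (adjusted p = 0.29 from limma), and Ldhb, the heart type, at 21139 ± 2535 and 20375 ± 3413. Glul (glutamine synthetase) lay higher in all SuHx libraries, at 2481 ± 524 against 1527 ± 154, and Dhtkd1 and Sirt4 lay lower in all of them, at 56.9 ± 5.68 against 85.9 ± 6.50 and 14.0 ± 4.02 against 29.3 ± 2.14 normalised counts. None of these 3 passed, and apart from Gpt the genes of this paragraph and the one before were named after their values were seen. Of the 31 tested genes, 6 did not overlap between the groups (3 lower and 3 higher in SuHx). That share is not above the 24.6% of all tested genes that did not overlap.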

How the data were processed

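RNA from 3 control and 3 SuHx RV was sequenced from TruSeq libraries. Per the paper's supplement and the submitters' processing notes, the authors mapped and counted reads with Salmon (version 0.14.1) on an index of mouse files (GRCm38.p6) and used DESeq2 (version 1.24.0). The table they deposited holds a normalised signal per gene and library, without pooling. Its unit is DESeq2-normalised counts, and the reads counted in each library were not used here (the supplement names one planned depth for all). A common step was sought in the values under 12, and 91% to 96.8% of them in a library fell on it (tolerance 0.1 of a step), which is too few to rebuild reads, and no count test was used. No genome coordinates are given for the values, since the names are rat symbols while the index named is mouse.

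log2(normalised count + 1) was compared with limma 3.58.1 (R 4.3.3), two-sided, with moderation along a mean-variance trend and Benjamini-Hochberg adjustment over 10725 genes whose mean reached 10. Fold changes on this scale understate those of low genes. For genes whose groups did not overlap and for pairs of genes an exact permutation test was added. The fit was tested on simulated data with equal spread in both groups and no shared variation among genes. Those data do not mimic the wider spread of the controls here. The gene list and the tests were chosen with earlier results of these data known. The rule for full values took genes that passed, that did not overlap between groups or that were listed at 0, with the gene of highest mean per role, and further genes given in full were chosen after their values were seen. Alternatives covered the pseudocount, filter, scaling, moderation, library weights and each library left out. One, without control 3 and SuHx B, was added after the data were examined. Promoters were matched by symbol to RefSeq (GRCr8), for 34 of the 38 names, and 29 of those with values. The plots were made in matplotlib 3.10.9.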

Additional observations from a re-analysis of the deposited data

How the results depend on the processing

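With all libraries rescaled to equal totals, which the mitochondrially encoded transcripts dominate, the median log2 fold change of all tested genes was -0.31 and that of the 33 genes -0.38, and over all genes 90 were higher and 191 lower (166 and 72 as deposited). The median of the 33 genes lay 0.068 below that of all genes both there and as deposited. With equal totals of the other transcripts 1 of the 33 genes was lower (Pccb, log2 fold change -0.72, adjusted p = 0.032 from limma) and 110 of all genes were. With library weights 1 of the 33 was again lower (Pccb, adjusted p = 0.023), and 318 genes were higher and 183 lower. With no mean-variance trend 83 were higher and 38 lower. Without controls 1 and 3, a fit with 1 control in which the spread comes from SuHx alone and control 2 is assumed to vary like it, the median of the 33 genes was -0.31, with 65 of all genes higher and 6 lower, and without control 3 and SuHx B 87 were higher and 41 lower. With single libraries left out, 1 of the 33 genes was higher each time, 0 to 1 were lower (Pccb, without control 3), their median ran from -0.14 without control 3 to 0.071 without control 2, and over all genes 13 to 239 were higher and 7 to 115 lower. With genes listed at 0 left out, 0 of the list were higher. Over 19 alternatives 22 of the 33 genes changed sign at least once (22 also over the 18 with more than 1 control), so no direction is given for most of them. Gpt passed in 12 of the 19. The depth in reads behind low values such as those of Pdk3 and Me2 is not known. No paired analysis was possible because the SuHx columns carry no replicate number of the labels.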

Other observations

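Pdha1l1, named for its likeness to the gene of the PDH alpha subunit and chosen after its values were seen, was at 613, 760.5 and 297 normalised counts across the controls, against 805, 849.6 and 691 across SuHx. Its change of 0.59 on the log2 scale (standard error 0.33) did not pass (adjusted p = 0.41 in limma). Control 3 was the lowest library, as for Dlat, and the groups overlapped.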
